A study of Mus musculus with 16 samples.

Results

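In mouse embryonic stem cells, 62 array probes were lower after 48 h of E1A induction than at 0 h, and higher than at 0 h in a control harvested at 48 h. They were chosen on normalised log2 intensities from 13974 tested probes, out of 25697 on the array: the mean of the 48 h arrays lay at least 0.3 below the 0 h mean, and the mean of the 48 h control arrays at least 0.3 above it. A difference of 1 on this scale is a doubling of intensity. Of the 62 probes, 50 carry a gene symbol in the platform annotation, for 48 genes, because Klf4 and Rassf4 are each represented by 2 probes. The other 12 are unlisted in the annotation and are named by probe number. Among all tested probes, 3850 lay at least 0.3 below 0 h at 48 h, and 3544 lay at least 0.3 above it in the control.

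Total RNA was hybridised to single-colour Illumina bead arrays, 1 array per sample and 2 per group. The groups are cells harvested 0, 3, 6, 9, 12, 24 and 48 h after the start of E1A induction, and a 48 h group labelled cherry control. All 16 samples are labelled embryonic stem cells of mixed C57BL/6, C3H and CD1 background with the treatment E1A induction. The labels do not say whether the control cells carried E1A, how E1A was induced, whether a line was 1 clone, or whether the 2 replicates were separate cultures, so p-values reflect spread that may be technical only. Median raw intensities lay between 122 and 136, between 12124 and 12639 probes were detected per array, and a difference between groups had a median standard error of 0.12. The number of arrays limits the precision. The 7 probes for the markers Pou5f1, Nanog, Sox2, Zfp42 and Esrrb were each detected on at least 8 arrays, with a mean level of 10.49 to 10.54 on the 48 h arrays and 11.08 to 11.23 on the control arrays, against 11.09 to 11.11 at 0 h. These 7 probes moved in both directions. At 48 h their differences from 0 h were 0.15 for Esrrb, 0.41 for Nanog, and -0.05 and -0.45 for Sox2. They were -0.95 for Zfp42, and -1.54 and -1.69 for Pou5f1. In the control they were 0.87 for Esrrb, 0.79 for Nanog, and 0.39 and 0.20 for Sox2. They were -0.39 for Zfp42, and -0.70 and -0.79 for Pou5f1 there. Of 6 probes for feeder fibroblast markers (Col1a1, Col1a2, Col3a1, Thy1 and Postn), 1 was detected on at least 8 arrays, and their mean level was 4.71 to 4.79 at 48 h and 4.76 to 4.77 in the control, against 4.82 to 4.84 at 0 h. The 7 probes for the primitive endoderm markers Gata6, Gata4, Sox17 and Dab2, 5 of them detected on at least 8 arrays, averaged 7.58 to 7.66 at 48 h. They averaged 7.40 to 7.42 in the control, against 6.87 to 6.93 at 0 h. Their differences of 48 h from the control were -0.54 for Gata6, 0.34 for Gata4 and 0.68 on both Sox17 probes. The Dab2 probes had 0.16, 0.19 and -0.01. The 5 probes for the trophectoderm markers Cdx2, Gata3 and Elf5 averaged 5.09 to 5.10 at 48 h. In the control they averaged 4.94 to 4.99, against 5.04 to 5.05 at 0 h. Only Gata3 was detected on at least 8 arrays, with a difference of 48 h from the control of 0.81. The part of such cells in the values below was not tested. In bulk RNA, fewer cells of a type and less RNA per cell cannot be told apart.

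Embryonic stem cells self-renew through a network of transcription factors, among them the Krüppel-like factors Klf2 and Klf4, which act with Oct4, Sox2 and Nanog to maintain the naive state. The same cells secrete Fgf4, whose signalling through the ERK kinases primes them to leave that state. A small and changing fraction of cells in culture expresses genes of the early cleavage embryo, such as the Zscan4 cluster. The adenoviral protein E1A binds retinoblastoma proteins and the acetyltransferases p300 and CBP.

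The sequences of the promoters of Klf2, Klf4 and Fgf4 are shown because the means of these 3 member genes at 3 h lay furthest below those at 0 h. Each is the 250 bases before the annotated start, from RefSeq on GRCm38.p6, written 5′ to 3′ on the gene's strand, at chr8:72318812-72319061 on the + strand for Klf2, chr4:55532476-55532725 on the - strand for Klf4 and chr7:144861136-144861385 on the + strand for Fgf4. Capitals mark the letters GGGCGG (GC box) and CCAAT, or their reverse complements.
Klf2: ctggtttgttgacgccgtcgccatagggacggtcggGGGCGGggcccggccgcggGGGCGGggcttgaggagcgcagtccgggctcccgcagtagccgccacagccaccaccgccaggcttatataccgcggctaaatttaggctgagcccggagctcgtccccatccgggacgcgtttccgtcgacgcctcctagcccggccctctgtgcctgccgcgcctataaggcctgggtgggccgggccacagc
Klf4: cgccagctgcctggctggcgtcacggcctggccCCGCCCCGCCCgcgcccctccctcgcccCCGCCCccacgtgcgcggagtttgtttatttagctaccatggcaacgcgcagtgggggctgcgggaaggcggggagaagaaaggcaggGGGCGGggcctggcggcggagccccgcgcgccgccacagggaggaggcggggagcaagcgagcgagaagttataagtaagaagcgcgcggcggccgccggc
Fgf4: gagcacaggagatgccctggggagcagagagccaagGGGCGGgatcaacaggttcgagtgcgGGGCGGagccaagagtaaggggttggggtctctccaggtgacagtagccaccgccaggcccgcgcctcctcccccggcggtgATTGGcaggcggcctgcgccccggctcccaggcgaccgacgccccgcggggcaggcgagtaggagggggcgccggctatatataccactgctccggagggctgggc
The GC box letters occurred 2 times before Klf2, 4 times before Klf4 and 2 times before Fgf4, and the CCAAT letters 1 time before Fgf4. RefSeq promoters running 250 bases before to 50 after the start were found for 36 of the 48 member genes. On either strand, GGGCGG was in 44.4% of them and in 38.2% of the promoters of all 27025 genes, and CCAAT was in 50% of the members' and 41.1% of all. The STAT letters TTCNNNGAA were in 11.1% of the members' promoters and in 9.55% of all, TATAAA in 13.9% and 15.7%, and the cyclic AMP element TGACGTCA in 2.78% and 2.03%. TTTCCCGC, an E2F-type motif, and the octamer ATGCAAAT were in 0 of the 36, against 1.24% and 1.97% of all promoters. None of these motifs contains another, and a match or its absence describes only the letters of these windows.

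The groups that chose the members set the sign of what they show at 48 h. Among the 62, the difference of 48 h from 0 h ran between -1.38 and -0.30, with a median of -0.46, and the difference of the control from 0 h between 0.30 and 1.53, with a median of 0.54. The difference of 48 h from the control ran from -2.40 to -0.69. Tdgf1 and Gm428 were at least 1 below 0 h at 48 h. ILMN_2810827 and Pramel7 had 48 h signals under the detection limit, which gives a bound in place of a value: they lay at least 2.19-fold and at least 1.96-fold below 0 h. Bounds here set the higher group's mean against the lowest signal of probes above background on the dim arrays, or the probe's own where higher. In the control, 11 probes were at least 1 above 0 h. Of these 11, AF067063, Jam2, Gm5662, Klf4, Gm428 and Zscan4c have a symbol. Just inside the limit, Synm had a 48 h difference of -0.30, Slc34a3 a control difference of 0.30 and Arrdc4 a 48 h difference of -0.31. Just outside it, Mybl2 had a 48 h difference of -0.30, Klk8 a control difference of 0.30 and Ryr1 a 48 h difference of -0.29. Within 0.1 of the limit there were 26 members, and 75 other probes lay within 0.1 outside it.
Probes were also chosen on the arrays numbered 1 and read on the arrays numbered 2, and the reverse. All these arrays belong to the groups of the rule, were normalised and filtered together, and may not be separate cultures. The shares below therefore describe only how well the arrays repeat each other. Of 64 probes chosen on replicate 1, 58 (90.6%) were again below 0 h at 48 h and above it in the control on replicate 2, against 9.08% of all tested probes. Of 79 chosen on replicate 2, 66 (83.5%) kept both signs on replicate 1, against 8.67% of all. Keeping both signs asks less than the limit of 0.3 on both differences. That limit was met again by 36 of the 64 on replicate 2 and by 36 of the 79 on replicate 1. Among the 62 members were 44 of the 64 and 48 of the 79.

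The members' median level was lower at the later times of induction. The only control was harvested at 48 h, so the times from 3 to 24 h have no control of their own. In changes over these times, induction and time in culture cannot be told apart. The control has no 0 h arrays of its own. In its difference from 0 h, time in culture and a difference between the cells cannot be told apart. The median difference from the 0 h mean was -0.08 and -0.10 on the 3 h arrays, -0.16 and -0.16 at 6 h, and -0.17 and -0.25 at 9 h. It was -0.30 and -0.25 at 12 h, -0.51 and -0.44 at 24 h, and -0.47 and -0.53 at 48 h. The control arrays had medians of 0.54 and 0.60, and the median of all tested probes lay between -0.03 and 0.0014 on the 16 arrays. By this median, the 24 h and 48 h arrays overlapped. The lowest induced mean was that of 48 h for 34 probes and that of 24 h for 20, and for the other 8 it came earlier.

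**Figure D1:**
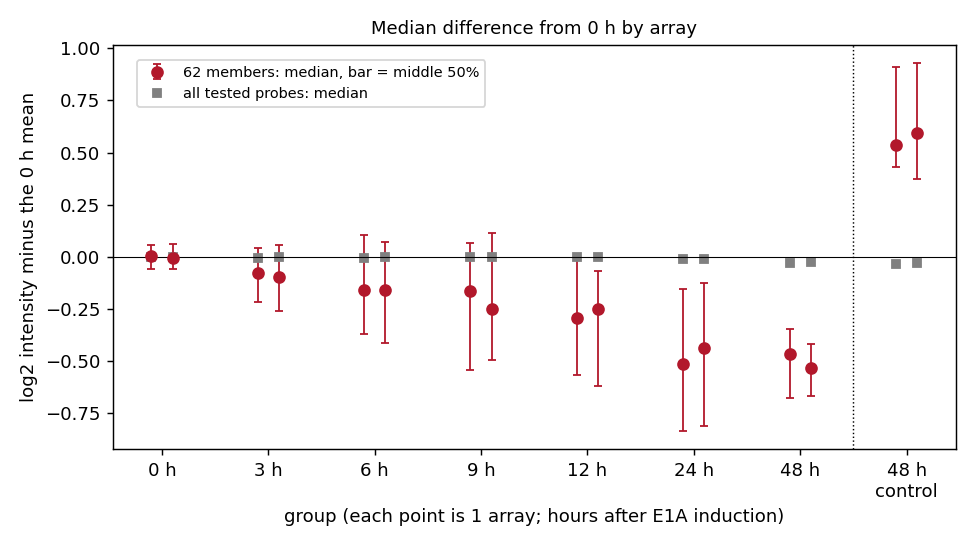
Median difference from the 0 h mean on each array, in log2 intensity, for the 62 members (red points, bars spanning the middle 50% of members) and for all tested probes (grey squares), by group. The members' medians run from -0.08 and -0.10 at 3 h to -0.51 and -0.44 at 24 h, and stand at 0.54 and 0.60 in the 48 h control.

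A fall was counted as begun at the first time from which both arrays lay below both 0 h arrays at that and each later time up to 24 h. By 3 h this held for 15 of the 62 members (6.16% of all tested probes) and by 6 h for 29 (11.1% of all). By 9 h it held for 33 (14% of all), by 12 h for 35 (20% of all) and by 24 h for 45 (33.2% of all). The remaining 17 showed no such fall by 24 h. Because the 0 h arrays helped to choose the members, these counts are descriptions. The 15 earliest were Klf2, both Klf4 probes, Fgf4, Eif2s2, Arrdc4, Hbegf, Itpka, Tesc, Pkd2l1, Ass1, 1 of the Rassf4 probes, ILMN_2993962, ILMN_1223594 and ILMN_2810827. Those that followed at 6 h were Pramel7, Ak4, Jam2, Gm5662, the other Rassf4 probe, St8sia1, Slc51a, Bcat1, Tdgf1, Tdpoz4, Gfod1, Hal, ILMN_2858587 and ILMN_2946959. By the limma test against 0 h, 4 members were first called lower at 3 h (0.572% of all tested probes), 10 at 6 h (3.56% of all) and 8 at 9 h (1.65% of all). A further 6 followed at 12 h (2.4% of all) and 7 at 24 h (8.47% of all), which makes 35 called at some time from 3 to 24 h. The first call came at 48 h for 20 members (15.6% of all), and 7 were never called lower (67.8% of all). Counting every call, those lower than 0 h were 4 members at 3 h (0.572% of all tested probes), 14 at 6 h (3.96% of all) and 21 at 9 h (4.03% of all). The members called were 23 for 12 h (6.09% of all), 34 for 24 h (14.1% of all) and 53 for 48 h (27.5% of all). In the control 60 were called higher (25.7% of all). Nothing is read from these counts, because the 0 h arrays served in the choice.

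**Figure D2:**
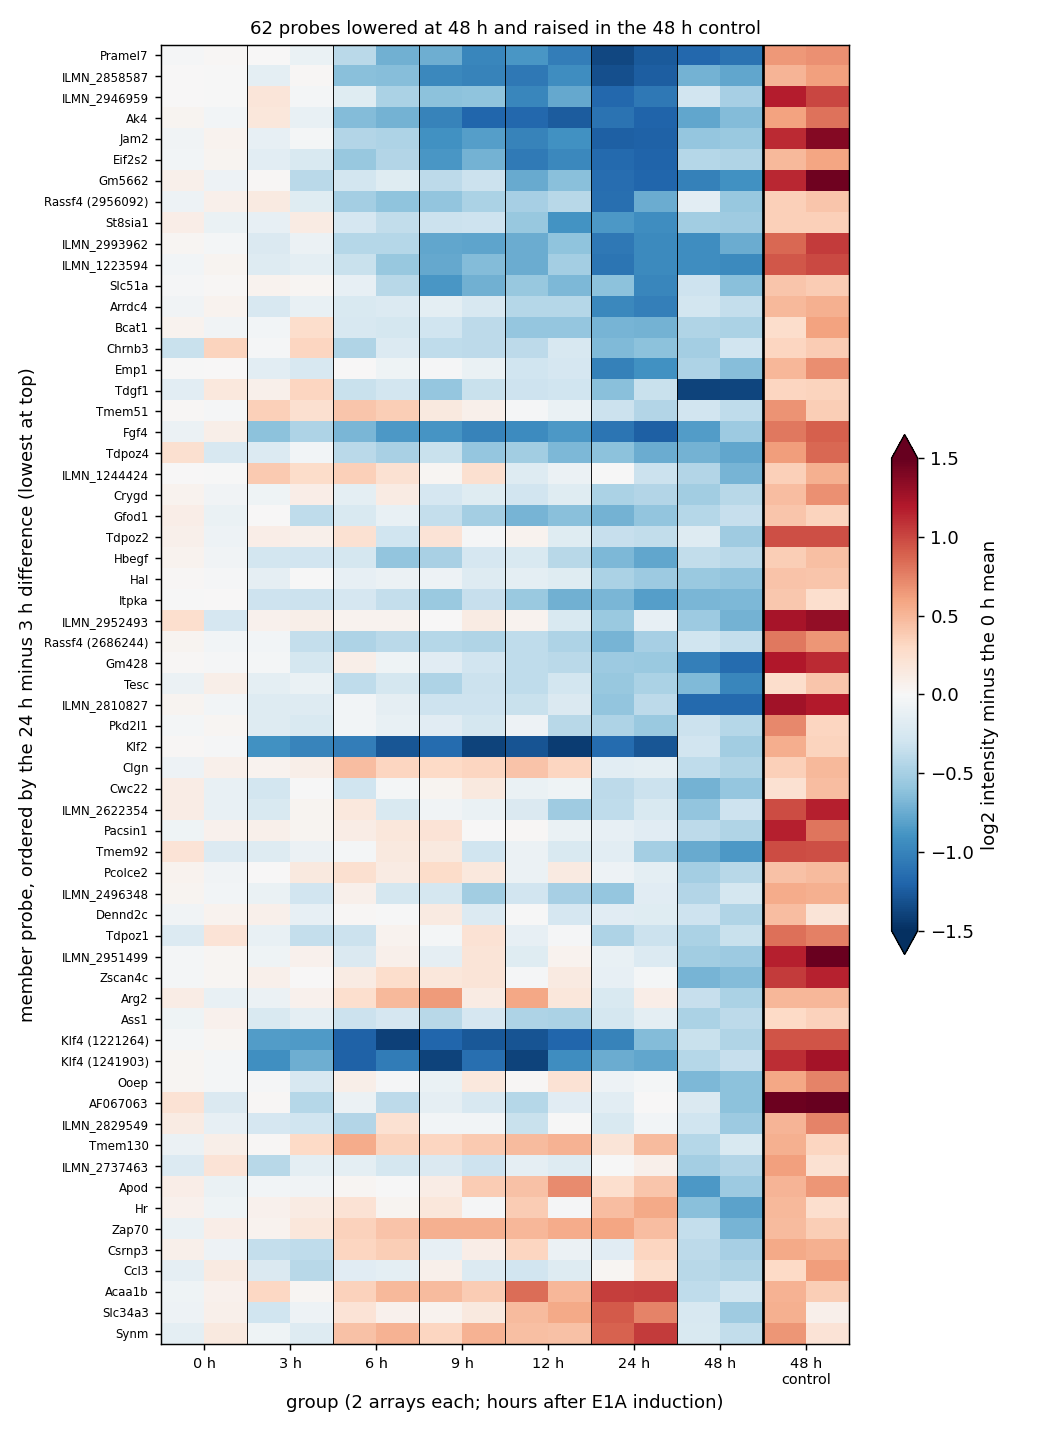
Each member probe (rows, ordered by the difference of 24 h from 3 h) on each of the 16 arrays (columns, grouped by time with the 48 h control at the right), coloured by log2 intensity minus the 0 h mean. Klf2 and the Klf4 probes are blue from 3 h, the top rows turn blue from 6 h, and the bottom rows are red at 24 h before turning blue at 48 h.

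The arrays of 3 to 24 h entered the choice of members only through the shared normalisation and detection filter, and they allow tests. The spread in these tests was estimated from all 16 arrays. Between 24 h and 3 h, 31 of the 62 members were lower and 8 were higher, and 23 were not called (limma, adjusted p under 0.05). Over all tested probes, 12.9% were called lower and 14.1% higher in that comparison. The 8 higher calls were 4 without either 3 h array or without replicate 2 of 24 h, and 5 without replicate 1 of 24 h. Of the 31, Pramel7, St8sia1, Chrnb3, Tdpoz4, Crygd and 1 Rassf4 probe were above background on neither 24 h array. The members' median difference was -0.35, against -0.01 for all tested probes. Its size depended on the processing: it was -0.14 without background correction and -0.22 with an offset of 50. All tested probes had a median of -0.01 under both settings. Both 24 h arrays lay below both 3 h arrays for 41 members, against 32.3% of all probes, and above them for 10, against 30.4%. Of the 50 members with a gene symbol 25 were called lower, and of the 12 unlisted ones 6 were. By the F test over the 5 groups of 3 to 24 h, 35 members (56.5%) changed, against 20.7% of all tested probes. Of these 35, all but Clgn, a chaperone of the endoplasmic reticulum, and both Klf4 probes were also called between 24 h and 3 h.
The earlier steps were smaller. Between 6 h and 3 h, 4 members were called lower (0.988% of all probes) and 2 higher (1.57% of all). The 4 were Pramel7, Ak4, 1 Klf4 probe and ILMN_2858587, and the 2 were Csrnp3 and Synm. Between 9 h and 6 h and between 12 h and 9 h, 0 members were called in the limma test, and over all probes 7 (0.0501%) and 0 were. Between 12 h and 3 h, 17 members were lower (3.84% of all) and 5 were higher (4.84% of all). The 17 were 9 without replicate 1 of 12 h, and 11 without replicate 2 of 12 h or either 3 h array. Between 24 h and 12 h, 5 were lower (1.94% of all), namely Arrdc4, Emp1, Hal, Clgn and ILMN_1223594, and 1, Synm, was higher (2.53% of all). The 5 were 3 without replicate 2 of 12 h or without either 24 h array, and the 4 lower at 6 h were 1 without replicate 2 of 3 h and 2 without replicate 1 of 3 h or replicate 2 of 6 h.

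**Figure D3:**
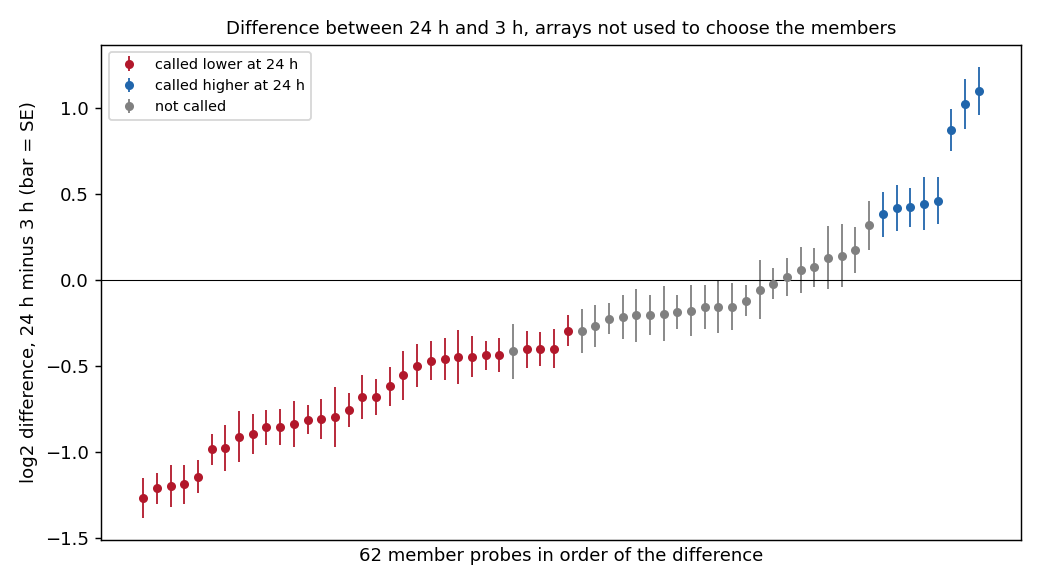
Difference of 24 h from 3 h in log2 intensity for the 62 members in order, with the standard error of the fit as the bar; red points were called lower at 24 h, blue points higher, and grey points were not called. The red points reach -1.27 for Pramel7, which was not above background at 24 h, and the 8 blue points reach 1.10.

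Klf2 and Klf4 were among the 15 members whose arrays lay below those of 0 h from 3 to 24 h. Klf2 (ILMN_2604029) had log2 intensities of 10.36 and 10.33 at 0 h, 9.43 and 9.35 at 3 h, 9.31 and 9.06 at 6 h, and 9.19 and 8.96 at 9 h. Klf2 then had 9.05 and 8.92 at 12 h, 9.19 and 9.06 at 24 h, and 10.06 and 9.82 at 48 h, against 10.89 and 10.68 in the 48 h control. Both arrays at each time from 3 to 24 h were below both at 0 h and both at 48 h, and the control arrays were the highest. Its 3 h mean lay 0.95 below its 0 h mean, a description because the 0 h arrays served in the choice. The difference of 24 h from 3 h was -0.27 ± 0.12 (SE; adjusted p = 0.123), which did not pass the test in the main fit, without a replicate block. One Klf4 probe (ILMN_1221264) had 7.02 and 7.09 at 0 h, 6.21 and 6.20 at 3 h, 5.83 and 5.65 at 6 h, and 5.86 and 5.78 at 9 h. ILMN_1221264 then had 5.76 and 5.86 at 12 h, 6.05 and 6.40 at 24 h, and 6.72 and 6.60 at 48 h, against 7.999 and 7.99 in the 48 h control. It was lower at 6 h than at 3 h by 0.47 ± 0.11 (SE; adjusted p = 0.0423) and its arrays of 6, 9 and 12 h overlapped. The difference of 24 h from 12 h was 0.42 ± 0.11 (SE; adjusted p = 0.0508). The other Klf4 probe chosen (ILMN_1241903) had 7.95 and 7.89 at 0 h, 7.004 and 7.19 at 3 h, 6.71 and 6.87 at 6 h, and 6.54 and 6.79 at 9 h. ILMN_1241903 then had 6.53 and 6.99 at 12 h, 7.17 and 7.14 at 24 h, and 7.50 and 7.57 at 48 h, against 9.03 and 9.17 in the 48 h control. Neither Klf4 probe passed the test between 24 h and 3 h, with differences of 0.02 ± 0.11 (SE; adjusted p = 0.935) and 0.06 ± 0.14 (SE; adjusted p = 0.796), yet both changed across the 5 groups by the F test. The other Klf4 probe on the array, ILMN_2999439, missed the limit for members: its mean was 9.47 at 0 h, 8.73 at 3 h and 8.32 at 9 h, and then 8.88 at 24 h and 9.33 at 48 h, against 10.45 in the control. In all 3 Klf4 probes the lowest mean was at 6 or 9 h and the highest in the control.

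Fgf4, the secreted growth factor, and Tdgf1, the Nodal co-receptor also called Cripto, fell on the arrays that were not used for the choice. Fgf4 (ILMN_2608629) had log2 intensities of 7.09 and 7.27 at 0 h, 6.56 and 6.71 at 3 h, 6.49 and 6.32 at 6 h, and 6.29 and 6.17 at 9 h. Fgf4 then had 6.23 and 6.32 at 12 h, 6.08 and 5.95 at 24 h, and 6.35 and 6.63 at 48 h, against 7.98 and 8.08 in the 48 h control. Its 3 h arrays were both below its 0 h arrays, its 24 h arrays were the lowest of all, and its control arrays the highest. It was lower at 24 h than at 3 h by 0.62 ± 0.11 (SE; adjusted p = 0.00131). Tdgf1 (ILMN_2917458) had 8.996 and 9.30 at 0 h, 9.22 and 9.48 at 3 h, 8.82 and 8.88 at 6 h, and 8.57 and 8.81 at 9 h. Tdgf1 then had 8.84 and 8.85 at 12 h, 8.52 and 8.82 at 24 h, and 7.77 and 7.78 at 48 h, against 9.47 and 9.49 in the 48 h control. Its 3 h arrays overlapped the 0 h arrays, and its 48 h arrays lay below every other array. Tdgf1 was lower at 24 h than at 3 h by 0.68 ± 0.13 (SE; adjusted p = 0.00148). A second Tdgf1 probe, ILMN_2595311, had means of 7.33 at 0 h and 7.14 at 3 h, then 6.60 at 24 h and 5.97 at 48 h, against 7.47 in the control. It was also called lower at 24 h than at 3 h.

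These 4 genes were the members that lay in a list of 23 pluripotency genes. Of that list, 20 genes had 35 tested probes, 5 of them members. Between 24 h and 3 h, 19 of the 35 probes were lower and 0 higher by the limma test (12.9% and 14.1% of all tested probes), with a median difference of -0.38. Zfp42, a marker of the naive state, had a difference of -0.92, Utf1 of -1.02 and the 2 probes for Pou5f1, which encodes Oct4, of -0.61 and -0.62, but these 3 genes were no members: Utf1, for example, had a 48 h mean of 8.54 and a control mean of 9.10, against 11.03 at 0 h. Others of the list missed the rule because they lay above 0 h at 48 h. Their 48 h differences from 0 h were 1.09 for Dppa3, 0.49 and 0.66 for the Tcl1 probes and 0.41 for Nanog. Esrrb and Prdm14 had control differences of 0.87 and 1.04, with 48 h differences of 0.15 and 0.18. Against 0 h, 19 of the 35 were called lower and 4 higher at 48 h (27.5% and 25.5% of all), and 11 lower and 17 higher in the control (27.2% and 25.7% of all), the 5 members being chosen on these comparisons. None of the 13 other lists held a member. They covered E2F and p53 targets, the germ layers, endoderm, trophectoderm, extracellular matrix, epithelium, interferon, hypoxia, heat shock, sterol synthesis and chromatin. A fall between 3 h and 24 h was not particular to the pluripotency list. Of 10 tested sterol synthesis probes, 10 were called lower at 24 h and 0 higher, with a median difference of -0.53. Of 22 tested p53 target probes, 0 were called lower and 13 higher.

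Pramel7, a leucine-rich repeat protein of the Prame family found in the inner cell mass and in naive stem cells, was lower at 24 h than at 3 h on a probe that was dim at 24 h. The probe ILMN_1256946 had log2 intensities of 6.05 and 6.09 at 0 h, 6.08 and 5.97 at 3 h, 5.66 and 5.35 at 6 h, and 5.34 and 5.09 at 9 h. Pramel7 then had 5.19 and 5.03 at 12 h, 4.70 and 4.81 at 24 h, and 4.89 and 4.96 at 48 h, against 6.72 and 6.76 in the 48 h control. The 0 h and 3 h arrays overlapped, each later array up to 24 h was lower than both, and the 24 h and 48 h arrays were not well above background. The difference of 24 h from 3 h was -1.27 ± 0.12 (SE; adjusted p = 4.18e-06), which as a bound is at least 1.87-fold lower at 24 h. The 48 h arrays lay at least 3.12-fold below those of the control. At 6 h it was lower than at 3 h by 0.52 ± 0.12 (SE; adjusted p = 0.0304). Without background correction the difference of 24 h from 3 h was -0.42.

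Of 4 member enzymes of energy and amino acid metabolism, set together by their known roles, Ak4, Bcat1 and Hal were called lower at 24 h than at 3 h and Ass1 was not. Ak4, a mitochondrial adenylate kinase, had 8.90 and 8.81 at 0 h, 9.03 and 8.74 at 3 h, 8.20 and 8.14 at 6 h, and 7.85 and 7.66 at 9 h. Ak4 then had 7.67 and 7.60 at 12 h, 7.74 and 7.65 at 24 h, and 8.08 and 8.20 at 48 h, against 9.46 and 9.67 in the 48 h control on its probe ILMN_1256564. Its 3 h arrays overlapped the 0 h arrays, and every array from 6 h to 48 h was below all of them. The differences were -0.71 ± 0.11 (SE; adjusted p = 0.00475) between 6 h and 3 h and -1.19 ± 0.11 (SE; adjusted p = 6.04e-06) between 24 h and 3 h. Bcat1, the cytosolic transaminase of the branched-chain amino acids, had, on ILMN_2656827, 8.30 and 8.20 at 0 h, 8.20 and 8.51 at 3 h, 8.005 and 7.98 at 6 h, and 7.95 and 7.85 at 9 h. Bcat1 then had 7.66 and 7.67 at 12 h, 7.55 and 7.54 at 24 h, and 7.80 and 7.77 at 48 h, against 8.51 and 8.85 in the 48 h control. Its lowest arrays were those of 24 h, and the difference of 24 h from 3 h was -0.81 ± 0.12 (SE; adjusted p = 0.000213). Both other Bcat1 probes had their lowest mean at 24 h too, but were not members: ILMN_3131478 had a 48 h mean of 11.66 and a control mean of 12.44, against 11.86 at 0 h, and ILMN_2631939 had 6.91 and 7.52, against 7.50. Hal, which breaks down histidine, had, on ILMN_2984332, 7.96 and 7.93 at 0 h, 7.81 and 7.94 at 3 h, 7.82 and 7.85 at 6 h, and 7.87 and 7.76 at 9 h. Hal then had 7.79 and 7.76 at 12 h, 7.47 and 7.40 at 24 h, and 7.39 and 7.36 at 48 h, against 8.37 and 8.36 in the 48 h control. It was lower at 24 h than at 12 h by 0.34 ± 0.08 (SE; adjusted p = 0.0339) and than at 3 h by 0.44 ± 0.08 (SE; adjusted p = 0.0017). Ass1, which makes argininosuccinate in arginine synthesis, had, on ILMN_1247811, 9.85 and 9.98 at 0 h, 9.69 and 9.77 at 3 h, 9.59 and 9.66 at 6 h, and 9.51 and 9.67 at 9 h. Ass1 then had 9.46 and 9.44 at 12 h, 9.65 and 9.77 at 24 h, and 9.44 and 9.52 at 48 h, against 10.22 and 10.26 in the 48 h control. Its 24 h arrays overlapped those of 3 h, with a difference of -0.02 ± 0.09 (SE; adjusted p = 0.889). Hal and Ass1, like the other members described below that lie outside the naming rule, were chosen after their values were seen.

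Jam2, Emp1, Slc51a and Chrnb3, which are membrane proteins, and St8sia1, an enzyme of the Golgi, were each called lower at 24 h than at 3 h. They are set together by their known roles, and differences in timing between them were not tested. Jam2, a junctional adhesion molecule, had, on ILMN_2592881, 8.84 and 8.95 at 0 h, 8.77 and 8.87 at 3 h, 8.45 and 8.44 at 6 h, and 7.99 and 8.07 at 9 h. Jam2 then had 7.89 and 7.99 at 12 h, 7.67 and 7.68 at 24 h, and 8.32 and 8.34 at 48 h, against 10.02 and 10.27 in the 48 h control. From 6 h on, every induced array was below those of 0 and 3 h, the 24 h arrays were the lowest, and the control arrays were more than 1 above all others. It was lower at 24 h than at 3 h by 1.14 ± 0.10 (SE; adjusted p = 2.35e-06). The 3 other Jam2 probes also had lower means at 24 h than at 3 h, but they went below 0 h in both groups harvested at 48 h. ILMN_1227559 had means of 5.85 at 48 h and 7.36 in the control, against 8.44 at 0 h. ILMN_2790839 had 4.72 at 48 h and 5.51 in the control, against 6.99, and ILMN_2790842 had 4.73 and 5.60, against 6.75. The higher level of Jam2 in the control than at 0 h therefore rests on 1 of its 4 probes.
Emp1, a tetraspan membrane protein, had, on ILMN_2642913, 8.90 and 8.91 at 0 h, 8.74 and 8.65 at 3 h, 8.91 and 8.84 at 6 h, and 8.88 and 8.80 at 9 h. Emp1 then had 8.60 and 8.65 at 12 h, 7.89 and 7.99 at 24 h, and 8.44 and 8.26 at 48 h, against 9.40 and 9.60 in the 48 h control. The difference of 12 h from 3 h was -0.07 ± 0.10 (SE; adjusted p = 0.719), which did not pass the test, and that of 24 h from 12 h was -0.69 ± 0.10 (SE; adjusted p = 0.00141). St8sia1, the sialyltransferase that makes the ganglioside GD3, had, on ILMN_1225487, 5.87 and 5.67 at 0 h, 5.64 and 5.89 at 3 h, 5.52 and 5.40 at 6 h, and 5.45 and 5.45 at 9 h. St8sia1 then had 5.20 and 4.87 at 12 h, 4.90 and 4.84 at 24 h, and 5.25 and 5.24 at 48 h, against 6.12 and 6.12 in the 48 h control. Its 24 h arrays were not well above background, and it was lower at 24 h than at 3 h by 0.90 ± 0.12 (SE; adjusted p = 8.37e-05), at least 1.57-fold. Slc51a, the alpha subunit of an organic solute transporter, had, on ILMN_2746116, 7.07 and 7.11 at 0 h, 7.15 and 7.12 at 3 h, 6.97 and 6.67 at 6 h, and 6.21 and 6.37 at 9 h. Slc51a then had 6.53 and 6.42 at 12 h, 6.48 and 6.12 at 24 h, and 6.78 and 6.47 at 48 h, against 7.50 and 7.47 in the 48 h control. All its arrays from 9 to 24 h were below those of 3 h, with a difference of 24 h from 3 h of -0.84 ± 0.13 (SE; adjusted p = 0.000455). Chrnb3, a subunit of the nicotinic acetylcholine receptor, had, on ILMN_3163270, 4.93 and 5.61 at 0 h, 5.26 and 5.59 at 3 h, 4.83 and 5.06 at 6 h, and 4.90 and 4.88 at 9 h. Chrnb3 then had 4.88 and 5.04 at 12 h, 4.61 and 4.66 at 24 h, and 4.76 and 4.99 at 48 h, against 5.60 and 5.65 in the 48 h control. It was detected on both arrays only at 3 h and in the control, was lower at 24 h than at 3 h by 0.79 ± 0.17 (SE; adjusted p = 0.00409), at least 1.24-fold, and missed the threshold without replicate 2 of 3 h. The other Chrnb3 probes, ILMN_1227122 and ILMN_2689381, were detected on 0 arrays.

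The remaining genes named by the size of their fall were Eif2s2, Gm5662, Rassf4 and Arrdc4. Eif2s2, the beta subunit of the translation initiation factor eIF2, had, on ILMN_2774435, 10.08 and 10.16 at 0 h, 9.96 and 9.89 at 3 h, 9.56 and 9.68 at 6 h, and 9.25 and 9.41 at 9 h. Eif2s2 then had 9.06 and 9.16 at 12 h, 8.96 and 8.92 at 24 h, and 9.69 and 9.66 at 48 h, against 10.61 and 10.71 in the 48 h control. Each induced array lay below both 0 h arrays, the 24 h arrays were the lowest, and those of 48 h lay between. It was lower at 24 h than at 3 h by 0.99 ± 0.09 (SE; adjusted p = 4.9e-06). Its other probe, ILMN_1256795, had means of 11.80 at 3 h, 11.0035 at 24 h and 11.77 at 48 h, against 12.52 in the control and 11.93 at 0 h, so its 48 h mean lay within 0.3 of 0 h. Gm5662, a predicted gene, had, on ILMN_3073818, 8.24 and 8.08 at 0 h, 8.19 and 7.76 at 3 h, 7.89 and 7.98 at 6 h, and 7.76 and 7.84 at 9 h. Gm5662 then had 7.41 and 7.53 at 12 h, 7.02 and 6.97 at 24 h, and 7.15 and 7.25 at 48 h, against 9.30 and 9.62 in the 48 h control. It was lower at 24 h than at 3 h by 0.98 ± 0.13 (SE; adjusted p = 0.000135). Its second probe, ILMN_3152717, moved less, with means of 5.35 at 24 h and 5.64 at 3 h. That probe had means of 5.52 at 48 h and 5.71 in the control, against 5.56 at 0 h.
Rassf4, a protein with a Ras association domain, had, on ILMN_2956092, 5.80 and 5.95 at 0 h, 6.01 and 5.69 at 3 h, 5.36 and 5.27 at 6 h, and 5.28 and 5.40 at 9 h. Rassf4 then had 5.38 and 5.46 at 12 h, 4.74 and 5.14 at 24 h, and 5.71 and 5.31 at 48 h, against 6.24 and 6.29 in the 48 h control. Its 24 h arrays were the lowest, and 1 of them was not above background. The difference of 24 h from 3 h was -0.91 ± 0.15 (SE; adjusted p = 0.000531) on this probe. The other Rassf4 member, ILMN_2686244, was above background on 0 arrays from 6 to 48 h, and as its bound between 24 h and 3 h was under 1, no fold is given. Arrdc4, an arrestin domain protein, had, on ILMN_2648967, 10.08 and 10.19 at 0 h, 9.89 and 10.02 at 3 h, 9.90 and 9.93 at 6 h, and 9.99 and 9.90 at 9 h. Arrdc4 then had 9.71 and 9.71 at 12 h, 9.18 and 9.12 at 24 h, and 9.86 and 9.79 at 48 h, against 10.63 and 10.68 in the 48 h control. Its arrays of 3 to 9 h overlapped each other and lay below both 0 h arrays. The difference of 24 h from 12 h was -0.56 ± 0.09 (SE; adjusted p = 0.00216), and that of 24 h from 3 h was -0.81 ± 0.09 (SE; adjusted p = 1.5e-05).

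**Figure D4:**
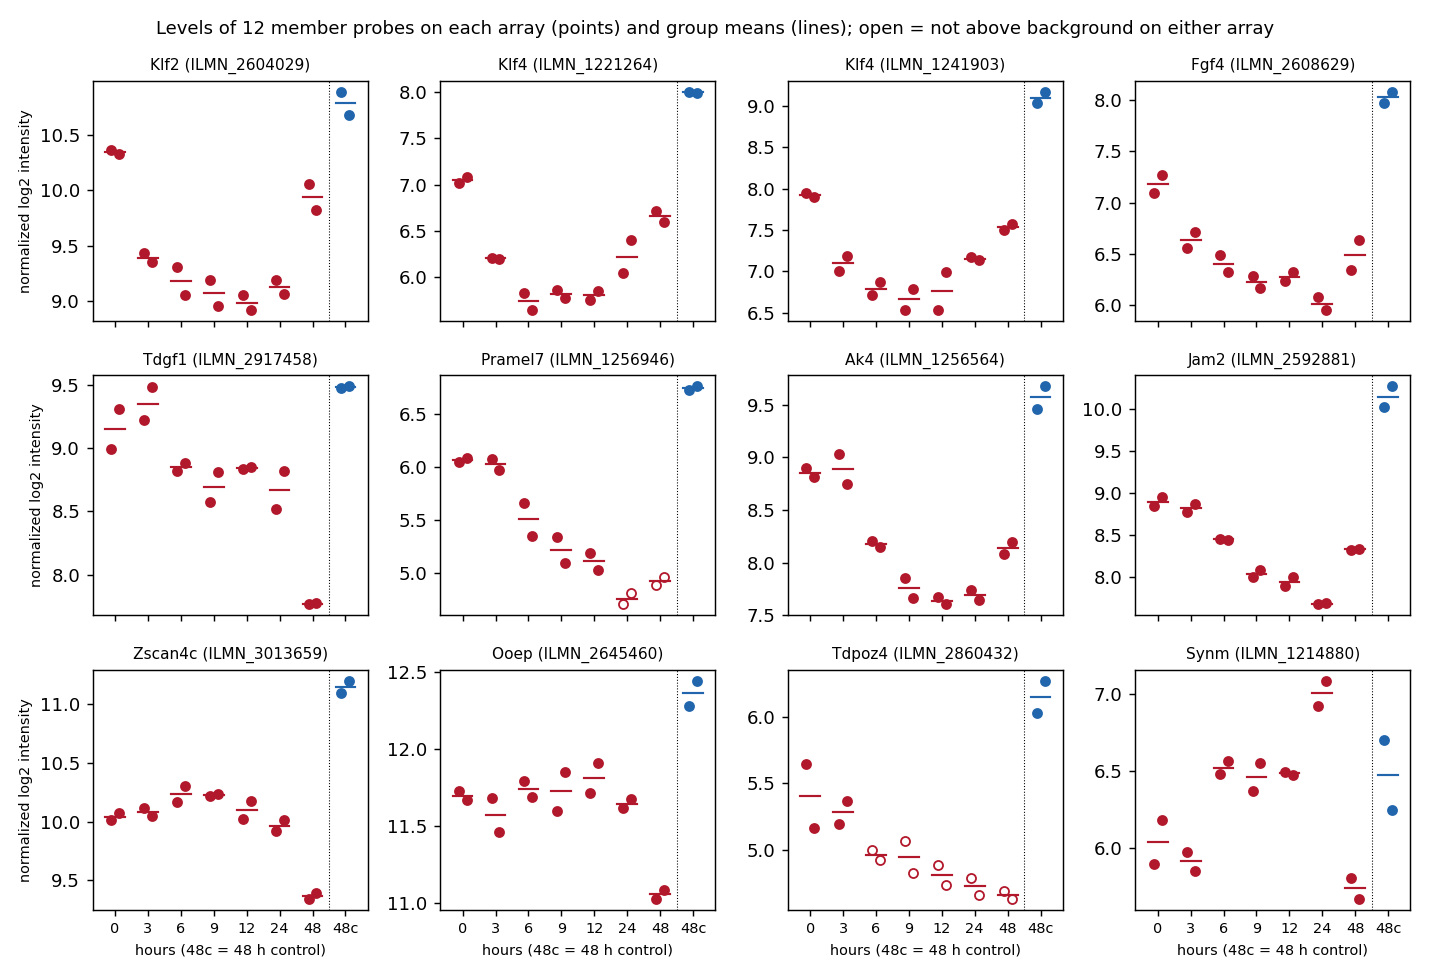
Normalised log2 intensity of 12 member probes on every array (points) with group means (lines), for the induced course in red and the 48 h control in blue; open points mark groups where neither array was above background. Klf2, Klf4 and Fgf4 are lower from 3 h, Pramel7, Ak4 and Jam2 from 6 h, Zscan4c and Ooep at 48 h, and Synm is highest at 24 h.

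Of 5 members known from the oocyte and the early embryo, Zscan4c, Ooep and Tdpoz1 did not pass the test between 24 h and 3 h, and Tdpoz4 and Tdpoz2 did. Differences in timing between these genes were not tested. Zscan4c, a zinc finger protein of the cleavage-stage embryo that is expressed in a changing fraction of stem cells, had, on ILMN_3013659, 10.01 and 10.07 at 0 h, 10.12 and 10.05 at 3 h, 10.17 and 10.30 at 6 h, and 10.22 and 10.24 at 9 h. Zscan4c then had 10.02 and 10.17 at 12 h, 9.92 and 10.01 at 24 h, and 9.34 and 9.39 at 48 h, against 11.09 and 11.20 in the 48 h control. Its arrays of 3 to 24 h lay between 9.92 and 10.30, on both sides of those of 0 h, both 48 h arrays were below every other array, and both control arrays were above. The difference of 24 h from 3 h was -0.12 ± 0.09 (SE; adjusted p = 0.357), which did not pass the test. Ooep, a maternal-effect protein of the oocyte's subcortical complex, had, on ILMN_2645460, 11.73 and 11.67 at 0 h, 11.68 and 11.46 at 3 h, 11.79 and 11.68 at 6 h, and 11.60 and 11.85 at 9 h. Ooep then had 11.71 and 11.91 at 12 h, 11.62 and 11.67 at 24 h, and 11.03 and 11.09 at 48 h, against 12.28 and 12.44 in the 48 h control. Its 48 h arrays were the lowest and its control arrays the highest here too. Its difference of 24 h from 3 h was 0.07 ± 0.11 (SE; adjusted p = 0.678). Of the 3 Tdpoz members, which encode proteins with MATH and POZ domains, Tdpoz4 (ILMN_2860432) had 5.65 and 5.17 at 0 h, 5.20 and 5.36 at 3 h, 4.997 and 4.92 at 6 h, and 5.07 and 4.83 at 9 h. Tdpoz4 then had 4.89 and 4.73 at 12 h, 4.79 and 4.66 at 24 h, and 4.69 and 4.63 at 48 h, against 6.03 and 6.27 in the 48 h control. It was above background only at 0 h, at 3 h and in the control, and at 48 h it lay at least 2.08-fold below the control. Between 24 h and 3 h its bound was 1.12-fold, lower at 24 h (adjusted p = 0.0107). A second Tdpoz4 probe, ILMN_2774210, was detected on 2 arrays. Its means were 4.84 at 48 h and 5.14 in the control, against 4.999 at 0 h. Tdpoz2 was lower at 24 h than at 3 h by 0.45 ± 0.15 (SE; adjusted p = 0.0447), and Tdpoz1 had a difference of -0.16 ± 0.15 (SE; adjusted p = 0.475) with neither group above background. Zscan4 and Tdpoz are families of near-identical copies, so which copy these probes measured is uncertain.
In 3 further members the distance between the groups harvested at 48 h was large beside the earlier course. AF067063 (ILMN_2893661) had 6.06 and 5.62 at 0 h, 5.86 and 5.41 at 3 h, 5.75 and 5.45 at 6 h, and 5.71 and 5.60 at 9 h. AF067063 then had 5.40 and 5.66 at 12 h, 5.68 and 5.84 at 24 h, and 5.62 and 5.22 at 48 h, against 7.30 and 7.42 in the 48 h control. Its arrays of 3 to 24 h overlapped those of 0 h, and both control arrays stood more than 1 above every other array. Gm428 (ILMN_2836827) had 6.94 and 6.91 at 0 h, 6.89 and 6.66 at 3 h, 7.01 and 6.86 at 6 h, and 6.76 and 6.64 at 9 h. Gm428 then had 6.55 and 6.53 at 12 h, 6.38 and 6.37 at 24 h, and 5.91 and 5.78 at 48 h, against 8.13 and 8.05 in the 48 h control. Both 48 h arrays were below all others, and it was lower at 24 h than at 3 h by 0.40 ± 0.10 (SE; adjusted p = 0.00819). Tmem92 (ILMN_2866742) had 6.04 and 5.64 at 0 h, 5.65 and 5.75 at 3 h, 5.81 and 5.98 at 6 h, and 5.98 and 5.55 at 9 h. Tmem92 then had 5.75 and 5.61 at 12 h, 5.69 and 5.32 at 24 h, and 5.08 and 4.98 at 48 h, against 6.82 and 6.81 in the 48 h control. It was not above background at 48 h, stood there under the control by a bound of 3.28-fold, and had a difference of 24 h from 3 h of -0.20 ± 0.16 (SE; adjusted p = 0.395).

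The 8 members called higher at 24 h than at 3 h were 12.9% of the 62, near the 14.1% of all tested probes, so that their number is no result about the members. Synm, the intermediate filament protein synemin, had, on ILMN_1214880, 5.90 and 6.18 at 0 h, 5.97 and 5.85 at 3 h, 6.48 and 6.57 at 6 h, and 6.37 and 6.56 at 9 h. Synm then had 6.50 and 6.48 at 12 h, 6.93 and 7.09 at 24 h, and 5.81 and 5.67 at 48 h, against 6.71 and 6.25 in the 48 h control. Every array from 6 to 24 h was above those of 0 and 3 h, and the 48 h arrays were back below 0 h. It was higher at 24 h than at 3 h by 1.10 ± 0.14 (SE; adjusted p = 6.83e-05). The 2 other Synm probes disagreed with each other: ILMN_2636266 had means of 6.14 at 24 h and 5.37 at 3 h, and ILMN_3053693 had 5.24 and 5.20. In the control they had 5.47 and 5.23, against 5.45 and 5.26 at 0 h. The higher level of Synm in the control than at 0 h therefore rests on the member probe. Slc34a3, a sodium-phosphate cotransporter known from the kidney, had, on ILMN_1258111, 5.64 and 5.79 at 0 h, 5.41 and 5.64 at 3 h, 5.92 and 5.78 at 6 h, and 5.77 and 5.87 at 9 h. Slc34a3 then had 6.19 and 6.28 at 12 h, 6.63 and 6.46 at 24 h, and 5.47 and 5.18 at 48 h, against 6.25 and 5.79 in the 48 h control. It was higher at 24 h than at 3 h by 1.02 ± 0.14 (SE; adjusted p = 0.000158). Acaa1b, a peroxisomal thiolase, had, on ILMN_2659997, 6.47 and 6.59 at 0 h, 6.84 and 6.56 at 3 h, 6.87 and 7.01 at 6 h, and 6.9995 and 6.91 at 9 h. Acaa1b then had 7.37 and 7.02 at 12 h, 7.56 and 7.57 at 24 h, and 6.14 and 6.26 at 48 h, against 7.05 and 6.90 in the 48 h control. Its 24 h arrays were the highest of all, the control included, and were above those of 3 h by 0.87 ± 0.12 (SE; adjusted p = 0.000169).
The other 5 rose by less. Zap70, a tyrosine kinase of T cell receptor signalling, had, on ILMN_2513870, 5.87 and 6.08 at 0 h, 6.02 and 6.14 at 3 h, 6.32 and 6.40 at 6 h, and 6.51 and 6.51 at 9 h. Zap70 then had 6.47 and 6.54 at 12 h, 6.57 and 6.44 at 24 h, and 5.62 and 5.28 at 48 h, against 6.45 and 6.34 in the 48 h control. It was higher at 24 h than at 3 h by 0.42 ± 0.11 (SE; adjusted p = 0.0143), and missed the threshold under 3 of 22 other settings. Another Zap70 probe, ILMN_3005740, had means of 5.13 at 48 h and 5.65 in the control, against 5.60 at 0 h. ILMN_1223542, also for Zap70, was detected on 0 arrays. Ccl3, a chemokine, had, on ILMN_1253919, 4.87 and 5.14 at 0 h, 4.78 and 4.59 at 3 h, 4.83 and 4.86 at 6 h, and 5.08 and 4.80 at 9 h. Ccl3 then had 4.72 and 4.82 at 12 h, 5.03 and 5.26 at 24 h, and 4.59 and 4.55 at 48 h, against 5.30 and 5.63 in the 48 h control. It was above background on both arrays only in the control. Between 24 h and 3 h it was called higher (adjusted p = 0.0221), but on 1 detected array at 24 h and 0 at 3 h, with a bound under 1, so that no fold is given. The call was lost under 5 of 21 other settings. Csrnp3, a nuclear protein, had, on ILMN_2744731, 5.31 and 5.16 at 0 h, 4.88 and 4.86 at 3 h, 5.57 and 5.60 at 6 h, and 5.12 and 5.34 at 9 h. Csrnp3 then had 5.56 and 5.15 at 12 h, 5.07 and 5.56 at 24 h, and 4.85 and 4.74 at 48 h, against 5.81 and 5.78 in the 48 h control. Detected on 1 array at 24 h and 0 at 3 h, it was at least 1.12-fold higher at 24 h (adjusted p = 0.0424), and missed the threshold under 10 of 21 other settings. Hr, the corepressor hairless, was higher by 0.42 ± 0.13 (SE; adjusted p = 0.0318), and Apod, a lipocalin, by 0.38 ± 0.13 (SE; adjusted p = 0.0455). All 8 were called lower at 48 h than at 24 h, a comparison whose low 48 h values the choice favoured (18.3% of all tested probes were called lower and 18% higher).
Over all 62 members, in the same comparison, 20 were called lower at 48 h than at 24 h and 14 higher. The 14 were Ak4, Jam2, Eif2s2, Rassf4, St8sia1, Arrdc4, Emp1, Fgf4, Hbegf, Klf2, both Klf4 probes, ILMN_2858587 and ILMN_2946959, and 11 of them were among the 31 called lower at 24 h than at 3 h.

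The median member was dimmer than the median tested probe. Over the arrays of 3 to 24 h, their median level was 6.46, with the middle 50% between 5.62 and 7.86, against a median of 7.11 for all tested probes, 7.73 for the 2937 probes that fell by 0.3 or more at 48 h and in the control alike, and 7.20 for the 33 probes of the reverse pattern. The 851 probes that fell at 48 h with a control mean within 0.3 of 0 h were also dimmer than all tested probes, with a median of 6.88. In raw intensity the members' median was 188.6, against 218.6 for those 851 and 238.8 for all tested probes. The members were detected on all 16 arrays in 45 cases (72.6%, against 75.9% of all tested probes) and on 8 or fewer in 6 (9.68%, against 12.8%). The offset used in the background correction shrinks differences of dim probes. Divided by level, the 21 dimmest members had a median difference of 24 h from 3 h of -0.20, with 9 called lower, the 20 in the middle -0.30, with 10, and the 21 brightest -0.68, with 12. In the same order, the median difference of 48 h from the control, which the choice favoured, was -0.999, -1.31 and -0.99. The part of the offset in these values was not tested.
The rule asked for low 48 h and high control arrays, so it helped to set how many members each of these groups detected. Both arrays detected 57 members at 0 h, 56 members each at 3 h and 6 h, and 55 members at 9 h. That number was 53 for 12 h, 48 for 24 h and 48 for 48 h, against 62 for the control. Above background on neither array were 1 member at 0 h and 3 to 5 members at each time up to 12 h. There were then 7 such members at 24 h and 13 at 48 h, against 0 in the control. Of the 13974 tested probes, 1215 were above background on neither array at 24 h and 1169 at 48 h, against 1046 in the control. Those detected on both control arrays and on neither 48 h array were 212 of all tested probes. The 13 were Pramel7, Chrnb3, Tdpoz4, Tdpoz1, 1 Rassf4 probe, Tmem92, Arg2, Tmem130, Csrnp3, Ccl3, ILMN_2952493, ILMN_2810827 and ILMN_2829549, and all 13 were detected on both control arrays. ILMN_2810827 had 6.27 and 6.20 at 0 h, 6.04 and 6.04 at 3 h, 6.19 and 6.10 at 6 h, and 5.92 and 5.92 at 9 h. ILMN_2810827 then had 5.90 and 6.02 at 12 h, 5.64 and 5.84 at 24 h, and 5.06 and 5.07 at 48 h, against 7.49 and 7.43 in the 48 h control. Its bound between the groups harvested at 48 h was 5.14-fold, in favour of the control. Ccl3 was the 1 member with fewer than 2 detected arrays outside the control, so that it passed the detection filter through the group where it is high.

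**Figure D5:**
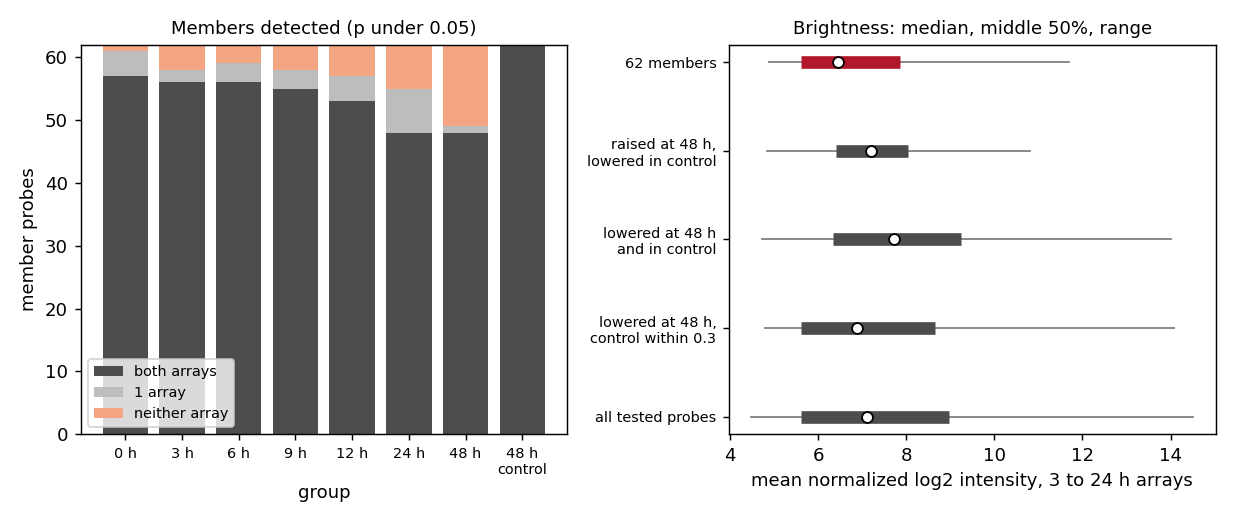
Left, the number of the 62 members detected (p under 0.05) on both arrays, 1 array or neither array of each group; right, the level over the 3 to 24 h arrays of the members and of 4 other sets of probes, with the median as a point, the middle 50% as a thick bar and the range as a line. Detection on both arrays goes from 57 members at 0 h to 48 at 48 h and is 62 in the control, and the members' median level is 6.46.

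Probes that share the fall but not the higher level in the control give the setting for these values. At 24 h against 3 h, 50% of the members were called lower, against 35.3% of the 2937 probes that fell at 48 h and in the control, 24.3% of the 851 that fell at 48 h with a control mean within 0.3 of 0 h, 6.06% of the 33 of the reverse pattern and 12.9% of all tested probes. Between 12 h and 3 h the shares were 27.4% of the members, 8.58%, 5.76%, 6.06% and 3.84% in the same order. Called higher at 24 h than at 3 h were 12.9% of the members, 2.32% of the 2937, 3.06% of the 851, 33.3% of the 33 and 14.1% of all tested probes. The differences between these sets were not tested.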

How the data were processed

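Total RNA of 16 samples was measured on single-colour bead arrays, in 8 groups of 2 taken from the sample titles. Per the submitters' processing notes, the tools were BeadStudio 3.2, lumi and RMA, with no role stated. The deposited table holds an intensity and a detection p-value per probe and array. The deposited intensities were linear, unnormalised and without negative values, and the deposited detection p-values came in steps of 1 in 798. The authors' log2 values in the series matrix, whose scaling is not stated, kept the rank order of the intensities within each array and were used as an alternative. All per-sample columns were matched to samples and 0 were left out.

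Background was corrected from the detection p-values with an offset of 16, followed by quantile normalisation and log2 (neqc in limma 3.58.1, R 4.3.3). A probe was tested if 2 or more arrays detected it at a p-value below 0.05. One limma model with a coefficient per group was fitted to all 13974 such probes, with Benjamini-Hochberg adjustment over them and a threshold of 0.05, and was checked on simulated data. The comparisons within 3 to 24 h used no group mean of the choice. Their normalisation, detection filter and estimate of the spread used all 16 arrays. Comparisons with 0 h, 48 h or the control used group means of the choice, and are descriptions. Genes come from GEO's platform annotation, which can be old: 23978 of 25697 probes have 1 symbol, 0 have several and 1719 are unlisted. Genes were named as the 12 lowest and 6 highest differences of 24 h from 3 h among members called with groups of arrays that do not overlap, plus members in the gene lists. Others are said to be chosen after their values were seen. The members and lists were chosen with earlier results of these data known.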

Additional observations from a re-analysis of the deposited data

How the results depend on the processing

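Of 704 values recomputed under other settings, 641 kept their direction, their side of the threshold or their size, 41 moved, 19 lost and 1 gained a call, and 2 changed sign. The share of all tested probes called was not recomputed, so counts of members called under these settings are no result about the members. The number of members was 18 without background correction, 34 with an offset of 50, 123 with the authors' series matrix values, where all 62 were among them, and 18 with a limit of 0.5. The share of probes chosen on 1 replicate that kept both signs on the other, 86.7% over both directions of choice, was 95.7%, 95.6% and 60.9% under the first 3 of these settings. Members called higher at 24 h than at 3 h numbered 5 without background correction, 5 without a detection filter and 3 at an adjusted p under 0.01. Those called lower at 6 h than at 3 h numbered 7 with an offset of 50, 2 with the series matrix values, 2 from the 10 arrays of 3 to 24 h alone and 2 at an adjusted p under 0.01. Those called lower at 24 h than at 12 h numbered 3 with median scaling, 8 with detection p under 0.01 on 4 arrays, 3 from the 10 arrays and 3 at an adjusted p under 0.01, where 10 were lower at 12 h than at 3 h. With detection at p under 0.01, 56.5% of members were detected on all arrays. Leaving out 1 array, or all arrays of 1 replicate number, gave 61 to 79 members, 23 to 31 called lower and 4 to 8 higher at 24 h than at 3 h, 9 to 17 lower at 12 h than at 3 h, 3 to 6 lower at 24 h than at 12 h, 1 to 5 lower at 6 h than at 3 h, 27 to 35 called by the F test, and 33 to 37 called lower than 0 h at some time from 3 to 24 h, against 35 with all arrays. A group left with 1 array was taken to vary like the others. Without replicate 1 of 12 h, 9 were called lower at 12 h than at 3 h, and 11 without replicate 2 of 12 h or without either 3 h array. Leaving out 1 array took the uncalled difference of Klf4 between -0.0355 and 0.15 on ILMN_1241903, the lowest without replicate 1 of 3 h, and between -0.16 and 0.195 on ILMN_1221264, the lowest without replicate 2 of 24 h. Limma's rma estimator of background was not run, and its rma75 estimator, chosen after seeing the data like the stricter detection for brightness, kept 56 of the 62 members among 59.

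Replicate numbers are shared by all groups. Deviations of same-numbered arrays correlated weakly, at -0.07 to 0.29 over 28 pairs of groups, with 16 over 0.1, and the main fit did not take the numbers to pair samples. Yet each array correlated best with its own number in 14 of 16 cases, so pairing by number is not settled and a fit with a replicate block is given beside the main one. With the replicate block, 32 members were called lower and 8 higher at 24 h than at 3 h, 21 lower at 12 h than at 3 h, 7 lower at 24 h than at 12 h, 6 lower at 6 h than at 3 h and 37 by the F test, and 37 were called lower than 0 h at some time from 3 to 24 h. The share of all tested probes called with the block was not computed, so these counts are no result about the members. Under the block Klf2 was called lower at 24 h than at 3 h (limma, adjusted p = 0.0294).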
